A study of Homo sapiens with 6 samples.

Results

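SSBP2, its paralogues SSBP3 and SSBP4, and the genes of the LDB1 complex (LDB1, LMO2, LMO4, TAL1, LYL1, TCF3 and TCF12) were followed in K562 cells, an established human erythroblastic leukemia line. These 10 genes, of the 19775 that a probe set of the array names alone, were measured by 44 of the 54675 probe sets of the array, taking every probe set whose annotation names a member, and no such probe set named a further gene. Total RNA of 3 samples of resistant cells was compared with that of 3 samples of parental cells on HG U133 PLUS 2.0 arrays. The resistant cells were labelled as resistant to 10e-5M methotrexate (MTX), a folate antagonist that blocks synthesis of nucleotides, and had been selected by stepwise exposure to the drug. The parental cells were sensitive to it. The medium of the resistant cells lacked hypoxanthine, thymidine and glycine and held dialysed serum, and that of the parental cells was Ham's F12 with whole fetal bovine serum. An effect of resistance and one of the medium cannot be told apart here. One resistant line was sampled, and nothing in the labels says that the replicates were separate cultures, so that the p-values measure only the spread between these samples. In RNA from a whole culture, fewer cells that express a gene and less of its RNA per cell cannot be told apart.

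LDB1 has no DNA-binding domain and dimerises, which lets it bring distant regulatory elements together. In erythroid cells the LIM-only protein LMO2 links it to a pair of basic helix-loop-helix (bHLH) proteins, TAL1 with an E protein such as TCF3 or TCF12, bound to an E-box, and to GATA1, bound to a GATA site nearby. SSBP2, SSBP3 and SSBP4 are single-stranded DNA-binding proteins that bind LDB1 and shield it from degradation.

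Levels below are signals divided by the median of the array, so that a level of 1 lies in the range of background. Median signals were 12.3, 12.5 and 10.2 in resistant 1 to 3, and 14.3, 13.1 and 12.7 in parental 1 to 3. Parental 1 stood apart, with Spearman correlations across probe sets of 0.899 and 0.889 to the other parental arrays, while these reached 0.969 between themselves. Values without it are given for several members. Groups fall apart more easily with fewer parental arrays, and the share of all probe sets without overlap was not counted for that setting. With all 6 arrays it was 27.2% of the tested probe sets. Of 6 erythroid markers listed, the annotation used named 3, TFRC, GATA1 and ALAS2, and these were above the median on all 6 arrays. Their summed level ran from 341.6 to 432.3 in resistant arrays and from 384.2 to 466.9 in parental arrays. TFRC made up most of the sum, with levels from 230.1 to 306.0. The log2 differences, resistant minus parental, were -0.09 for TFRC, -0.82 for GATA1 and 0.25 for ALAS2, none of them called. Of the members' probe sets, 35 averaged at least 1 array median and were tested by limma along with all others past that level, 26692 in total. Probe sets are called where the fold reached 2 and the adjusted p was below 0.05.

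SSBP2 was the one member gene called. Of its 6 probe sets, all of them tested, 5 were called higher in resistant cells and 0 lower, while 1.20% of the 26692 tested probe sets were called higher and 1.14% lower. Of the 29 tested probe sets of the other 9 genes, 0 were called by limma and 3 had an unadjusted p under 0.05. A test after the study's methods, the methods' test below, was run on the same values, without the study's control strength filter and its error model. It called 0 of these 29 as well, with 1 under 0.05 unadjusted. Of the 6 probe sets of SSBP2 it called 2, and 203787_at was not among them (adjusted p = 0.0546 by that test). The study's own analysis did list SSBP2 as higher in this line, by the transcript from which 203787_at was designed. That miss is therefore one of the test run here and not of the study's analysis. Because of this listing, the direction of SSBP2 here is not independent evidence.

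The SSBP2 probe set with the highest level, 203787_at, had levels of 100.8, 86.2 and 118.0 in resistant cells, against 23.3, 21.6 and 16.0 in parental cells. The lowest resistant array lay above the highest parental array by a wide margin, and the means were 101.7 ± 15.9 in resistant cells and 20.3 ± 3.79 in parental cells (SD, n = 3 each). This was a 5.03-fold difference, 2.33 on the log2 scale with a 95% interval of 1.74 to 2.93 (limma adjusted p = 0.00836). A second probe set of high level, 210829_s_at, had 101.7, 77.7 and 79.3 in resistant cells and 20.4, 15.9 and 15.1 in parental cells. It gave a fold of 5.04 (limma adjusted p = 0.00661). With no level filter, which adds the background probe sets to the adjustment, 203787_at was no longer called (limma adjusted p = 0.0663).

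The other 4 probe sets read SSBP2 at lower levels, and with them the parental cells were near background. Probe set 238861_at had 8.26, 7.66 and 7.88 in resistant cells, against 1.15, 1.23 and 0.654 in parental cells, a log2 difference of 3.03 (limma adjusted p = 0.00585). Probe set 1558604_a_at had 8.15, 5.72 and 7.66 in resistant cells and 1.43, 1.27 and 1.21 in parental cells, with a log2 difference of 2.45 (limma adjusted p = 0.0054). Again no array of one group reached the other. The last 2 were designed from the same transcript sequence. Of these, 238484_s_at had 6.65, 4.07 and 8.59 in resistant cells and 0.594, 0.855 and 0.803 in parental cells, a log2 difference of 3.05 (limma adjusted p = 0.00915). The other, 238483_at, had 2.29, 1.43 and 2.10 in resistant cells, against 0.664, 0.817 and 0.465 in parental cells. Its groups did not overlap either, but it missed the threshold, with a log2 difference of 1.59, a 95% interval of 0.85 to 2.33 and a limma adjusted p of 0.0595. Both probe sets of this pair had parental means under 1, within background, and passed the level filter only through the resistant cells, so that they had to differ and are given as a description. For the 4 probe sets whose means passed in both groups, all 4 were called and the median log2 difference was 2.39. Of the 24023 tested probe sets that passed in both groups, 361 were called. Among the 4, 238861_at passed in parental cells with a mean of only 1.01.

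**Figure D1:**
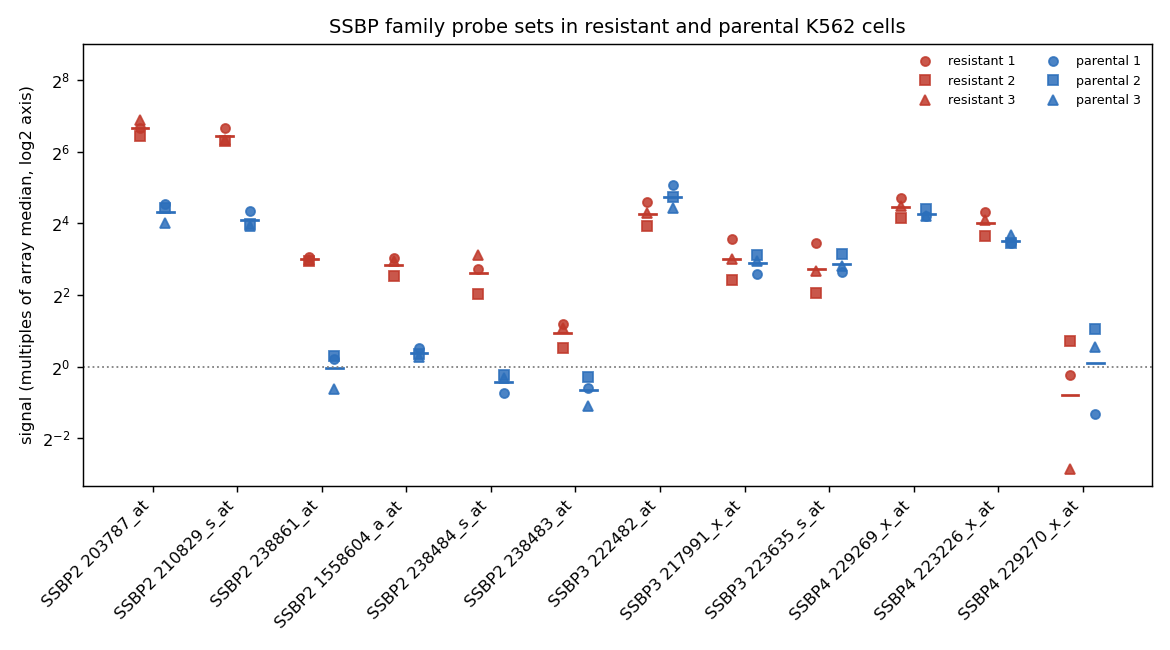
Signal of each probe set of SSBP2, SSBP3 and SSBP4 in multiples of the array median (log2 axis; points are arrays, bars are the mean log2 level of each group, n = 3 each, and the dotted line is the array median). For all 6 probe sets of SSBP2 the resistant arrays lie above the parental arrays, an order seen in 14.9% of all tested probe sets. Of these 6, 238484_s_at and 238483_at passed the level filter only through the resistant cells and had to differ. For the 6 probe sets of SSBP3 and SSBP4 the groups overlap.

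SSBP2 lies on chromosome 5. The promoter window of RefSeq (GRCh38.p14) is shown because this gene carries the called difference. It is the 250 bases before the outermost transcription start, and no GATA site or E-box was found in it.
SSBP2, chr5:81751808-81752057, minus strand: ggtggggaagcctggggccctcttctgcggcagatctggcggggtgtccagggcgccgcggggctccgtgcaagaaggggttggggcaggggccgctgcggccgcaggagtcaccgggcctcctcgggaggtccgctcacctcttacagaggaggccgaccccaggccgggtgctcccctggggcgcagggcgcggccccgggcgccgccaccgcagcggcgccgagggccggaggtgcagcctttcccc
The motifs searched for were GATAA (on the other strand TTATC) and the E-box CANNTG, which reads alike on both strands. The GC content of the window was 77.2%.

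The genes next to SSBP2 on the chromosome were high in resistant cells too, with exceptions. By gene, 1.30% of all genes tested were called higher. In gene order, the 3 tested genes on one side were RASGRF2, an exchange factor for small GTPases, with a log2 difference of 1.81 (limma adjusted p = 0.0968, not called), CKMT2-AS1, with 2.77 (called), and ZCCHC9, with 2.99 (called). On the other side came ATG10, an enzyme of autophagy, with 2.89 (called), RPS23, a ribosomal protein, with 0.32 (not called), and ATP6AP1L, with 4.69 (called). RASGRF2 was near background, with means of 1.78 in resistant cells and 0.553 in parental cells. It passed the level filter only through the resistant cells and had to differ. ZCCHC9 had 316.5, 243.0 and 233.4 in resistant cells, against 34.2, 36.8 and 28.3 in parental cells. RPS23, with a far smaller difference, had 981.8, 921.3 and 1129 in resistant cells and 799.3, 829.5 and 793.2 in parental cells. Its resistant arrays also all lay above the parental ones. SSBP2 therefore sat among genes called higher, and by its brightest probe set its fold lay below those of the 4 called neighbours. The folds of 238861_at and 238484_s_at lay above those of CKMT2-AS1, ZCCHC9 and ATG10, but their parental means, 1.01 and 0.751, were at background. Probe set 238484_s_at passed the level filter only through the resistant cells, so these folds do not rank SSBP2 among its neighbours. The difference between SSBP2 and each neighbour was not tested.

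The genes whose levels followed SSBP2 most closely over the 6 arrays were XRCC4, GRPEL2, RAP2B, CKMT2-AS1 and RAPH1, with Pearson correlations of log2 level from 0.997 to 0.998. The 6 points form 2 groups, so such a value mostly reflects the group difference. XRCC4, a partner of ligase IV in the joining of DNA ends and another gene of chromosome 5, had 72.4, 59.2 and 85.2 in resistant cells and 8.15, 9.04 and 5.43 in parental cells. SSBP1 shares only the name, being the single-stranded DNA-binding protein of mitochondria, and had 247.2, 199.8 and 252.7 in resistant cells against 238.7, 241.3 and 219.4 in parental cells (log2 difference -0.01, limma adjusted p = 0.992).

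SSBP3 and SSBP4, which bind LDB1 as SSBP2 does, were measured by 3 probe sets each, and 0 of the 6 were called (0 under 0.05 unadjusted). For SSBP3, probe set 222482_at had 23.9, 15.3 and 19.6 in resistant cells, against 33.6, 26.5 and 21.4 in parental cells. The groups overlapped, and the log2 difference was -0.47 with a 95% interval of -1.14 to 0.20 (limma adjusted p = 0.415). The other 2 probe sets of SSBP3 had log2 differences of 0.11 and -0.14.

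For SSBP4, probe set 229269_x_at had 25.9, 17.7 and 22.3 in resistant cells and 18.4, 21.1 and 18.3 in parental cells, a log2 difference of 0.18 with a 95% interval of -0.38 to 0.73. Probe set 223226_x_at had 20.0, 12.6 and 16.9 in resistant cells, against 10.8, 10.8 and 12.8 in parental cells, with a log2 difference of 0.50 and a 95% interval of -0.09 to 1.10 (limma adjusted p = 0.337). Its lowest resistant array lay just below its highest parental array. The third, 229270_x_at, was near background, between 0.137 and 2.06 on the 6 arrays, and had a log2 difference of -0.88, or -1.59 without parental 1. It passed the level filter only through the parental cells. Probe sets with this ending can match other transcripts.

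Within each array, the log2 level of SSBP2 was set against that of a paralogue, and the shift of that ratio between the groups was tested over the arrays. The shift was 2.80 against SSBP3 and 2.16 against SSBP4, each with no overlap between the groups. An exact two-sided permutation test gave p = 0.1 for both, the smallest that 3 arrays against 3 allow, and 0.125 after adjustment over the 5 pairs compared. The upper bounds of the 95% intervals of SSBP3 222482_at and SSBP4 229269_x_at, 0.20 and 0.73, lay below the lower bound for SSBP2 203787_at, 1.74.

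LDB1, which holds the complex together, was not called by either of its 2 probe sets. Probe set 35160_at had 11.5, 7.72 and 6.29 in resistant cells, against 3.82, 8.23 and 5.94 in parental cells. The groups overlapped, and parental 1 was the lowest of all 6 arrays. The log2 difference was 0.53 with a 95% interval of -0.36 to 1.42 (limma adjusted p = 0.487), and 0.24 without parental 1. Probe set 203451_at followed it closely, with 9.98, 5.98 and 6.09 in resistant cells and 3.75, 7.81 and 5.72 in parental cells, and a log2 difference of 0.37. Without parental 1 that difference was 0.10.

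LMO2, the LIM-only bridge to the DNA-binding partners, was among the members with the highest signal. Probe set 204249_s_at had 93.0, 79.6 and 73.9 in resistant cells, against 42.2, 78.2 and 95.4 in parental cells. Parental 1 was low and parental 3 was the highest array, and the log2 difference of 0.27 had a 95% interval of -0.55 to 1.08 (limma adjusted p = 0.719). Without parental 1 it was -0.08. The other probe set, 231049_at, had 4.84, 5.75 and 3.76 in resistant cells and 1.64, 5.50 and 6.31 in parental cells, with a log2 difference of 0.29, or -0.32 without parental 1. The direction for LMO2 thus rested on 1 array.

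LMO4, a LIM-only paralogue that also binds LDB1, was not called either. Probe set 209205_s_at had 12.8, 10.2 and 11.1 in resistant cells, against 12.1, 9.35 and 9.27 in parental cells, a log2 difference of 0.16 with a 95% interval of -0.37 to 0.69 (limma adjusted p = 0.741). Probe set 209204_at had 3.51, 3.50 and 2.66 in resistant cells and 2.22, 1.87 and 2.73 in parental cells, with a log2 difference of 0.51 (limma adjusted p = 0.329). The groups overlapped for both. Without parental 1 those of 209205_s_at no longer did, with a log2 difference of 0.28. The tested probe sets 229537_at and 241922_at lay near background, with log2 differences of 0.06 and -0.79, and the untested one ran from 0.0866 to 1.07. The ratio of LMO2 to LMO4 shifted by 0.10 between the groups (exact permutation p = 1).

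**Figure D2:**
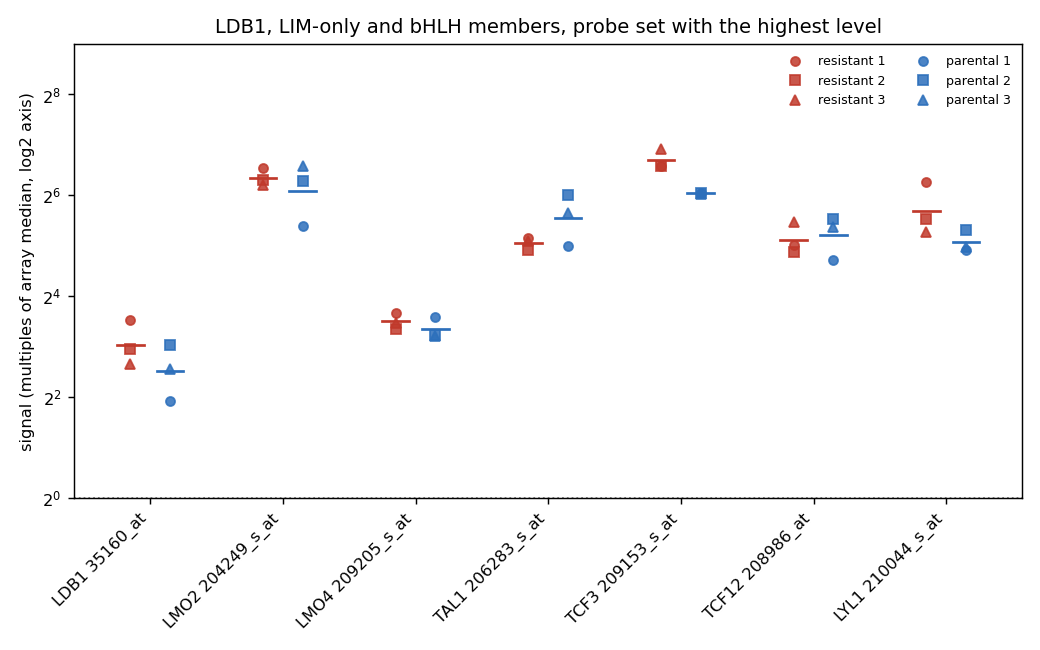
Signal of LDB1, LMO2, LMO4, TAL1, TCF3, TCF12 and LYL1, each at its brightest tested probe set, in multiples of the array median (log2 axis; points are arrays, bars are the mean log2 level of each group, n = 3 each). The groups overlap for every gene but TCF3, where the resistant arrays (95.8 to 120.9) lie above the parental arrays (65.5 to 66.2).

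TAL1, the bHLH protein that gives the complex its blood and erythroid specificity, lay lower in resistant cells on average but was not called. Probe set 206283_s_at had 35.7, 30.3 and 34.1 in resistant cells, against 32.1, 63.9 and 50.05 in parental cells. The resistant arrays lay close together, and parental 1 lay among them. The log2 difference was -0.49 with a 95% interval of -1.21 to 0.22 (limma adjusted p = 0.425). Without parental 1 the groups no longer overlapped and it was -0.77, with a 95% interval of -1.33 to -0.20 (limma adjusted p = 0.135). Probe set 216925_s_at had 7.93, 7.38 and 6.13 in resistant cells and 7.21, 12.7 and 10.5 in parental cells, with a log2 difference of -0.48, or -0.71 without parental 1 (limma adjusted p = 0.163). The probe set 1561651_s_at had a log2 difference of -0.38, or -0.80 without parental 1, so that all 3 tested probe sets pointed down, and the untested one stayed between 0.064 and 0.245.

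LYL1, a close relative of TAL1 in the bHLH family, had a single probe set, with 76.9, 46.1 and 38.5 in resistant cells against 30.4, 40.0 and 31.6 in parental cells. Resistant 1 was far above the rest, and resistant 3 lay below parental 2. The log2 difference was 0.61 with a 95% interval of -0.14 to 1.36 (limma adjusted p = 0.354). The within-array ratio of TAL1 to LYL1 was lower in every resistant array than in every parental array, with log2 ratios of -1.11, -0.61 and -0.18 in resistant cells and 0.08, 0.67 and 0.66 in parental cells. The shift of -1.10 had an exact permutation p of 0.1, the smallest possible, and 0.125 after adjustment over the 5 pairs.

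The promoter windows of TAL1 and LYL1 are shown because they were the 2 of the 8 members in the RefSeq table that held the GATA motif, in capitals and reading TTATC on the strand printed, the sequence that GATA1 in this complex recognises.
TAL1, chr1:47232336-47232585, minus strand: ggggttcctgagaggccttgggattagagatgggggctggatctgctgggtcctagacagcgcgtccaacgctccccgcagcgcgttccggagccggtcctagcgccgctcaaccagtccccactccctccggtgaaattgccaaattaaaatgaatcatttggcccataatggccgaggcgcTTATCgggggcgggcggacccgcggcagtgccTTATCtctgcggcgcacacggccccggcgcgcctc
LYL1, chr19:13102859-13103108, minus strand: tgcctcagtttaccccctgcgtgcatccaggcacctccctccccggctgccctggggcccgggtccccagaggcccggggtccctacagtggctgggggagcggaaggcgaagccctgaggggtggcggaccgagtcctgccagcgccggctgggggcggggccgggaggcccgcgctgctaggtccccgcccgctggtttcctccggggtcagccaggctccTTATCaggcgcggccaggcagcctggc
TAL1 had the motif at 67 and 35 bases before the start and LYL1 at 27 bases. Of the 35116 windows of this length in the table, 20.4% held the motif at least once and 3.87% at least 2 times. The E-box motif occurred in 3 of the 8 windows, those of SSBP3, TAL1 and TCF12, and in 61.8% of all windows. A match is a stretch of letters and not a measured site.

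TCF3 and TCF12 encode E proteins, the bHLH partners of TAL1. TCF3 had 14 probe sets, of which 9 were tested. Of the 7 whose means passed the level filter in both groups, 6 had a positive log2 difference, and the median was 0.39. The probe set with the highest level, 209153_s_at, had 96.0, 95.8 and 120.9 in resistant cells, against 65.8, 66.2 and 65.5 in parental cells. The parental arrays were nearly equal and all 3 resistant arrays lay above them. The log2 difference was 0.65, with a 95% interval of 0.16 to 1.15, but it missed the threshold after adjustment (unadjusted p = 0.0168, limma adjusted p = 0.166).

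The next probe sets of TCF3 by level did not separate the groups. Probe set 210776_x_at had 37.6, 33.9 and 55.1 in resistant cells and 38.6, 35.2 and 36.8 in parental cells, and its log2 difference was 0.16. Those of 213811_x_at, 213730_x_at, 209152_s_at, 215260_s_at and 209151_x_at ran from -0.06 to 0.59. The probe sets 216647_at and 216645_at were designed from the same sequence and lay near background. The first had 1.91, 1.14 and 2.18 in resistant cells and 1.06, 0.214 and 0.614 in parental cells, a log2 difference of 1.70 (limma adjusted p = 0.202). The second had 1.07, 1.70 and 1.86 in resistant cells, against 0.273, 0.405 and 1.06 in parental cells, a log2 difference of 1.62 (limma adjusted p = 0.177). With 209153_s_at, these are the 3 of the 29 probe sets outside SSBP2 whose resistant arrays all lay above the parental ones. The pair passed the level filter only through the resistant cells and had to differ. Among the 26 probe sets outside SSBP2 whose means passed in both groups, 209153_s_at was the one in this order, or 3.85%, against 14.6% of the 24023 probe sets that passed in both groups and 14.9% of all tested probe sets. Without parental 1 the log2 differences of the pair were 2.21 and 1.19. The 5 untested probe sets ran from 0.0709 to 1.66.

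For TCF12, probe set 208986_at had 32.4, 29.5 and 44.5 in resistant cells, against 26.4, 46.5 and 41.6 in parental cells, a log2 difference of -0.09 with a 95% interval of -0.81 to 0.64 (limma adjusted p = 0.904). Probe set 238041_at had 5.85, 5.06 and 4.96 in resistant cells and 5.65, 3.76 and 3.35 in parental cells, a log2 difference of 0.35, with the groups overlapping. Without parental 1 these differences were -0.33 and 0.57, and the groups of 238041_at no longer overlapped. The 2 untested probe sets stayed between 0.08 and 1.04. The ratio of TCF3 to TCF12 was higher in every resistant array, by 0.74 on the log2 scale (exact permutation p = 0.1, the smallest possible, and 0.125 after adjustment over the 5 pairs).

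**Figure D3:**
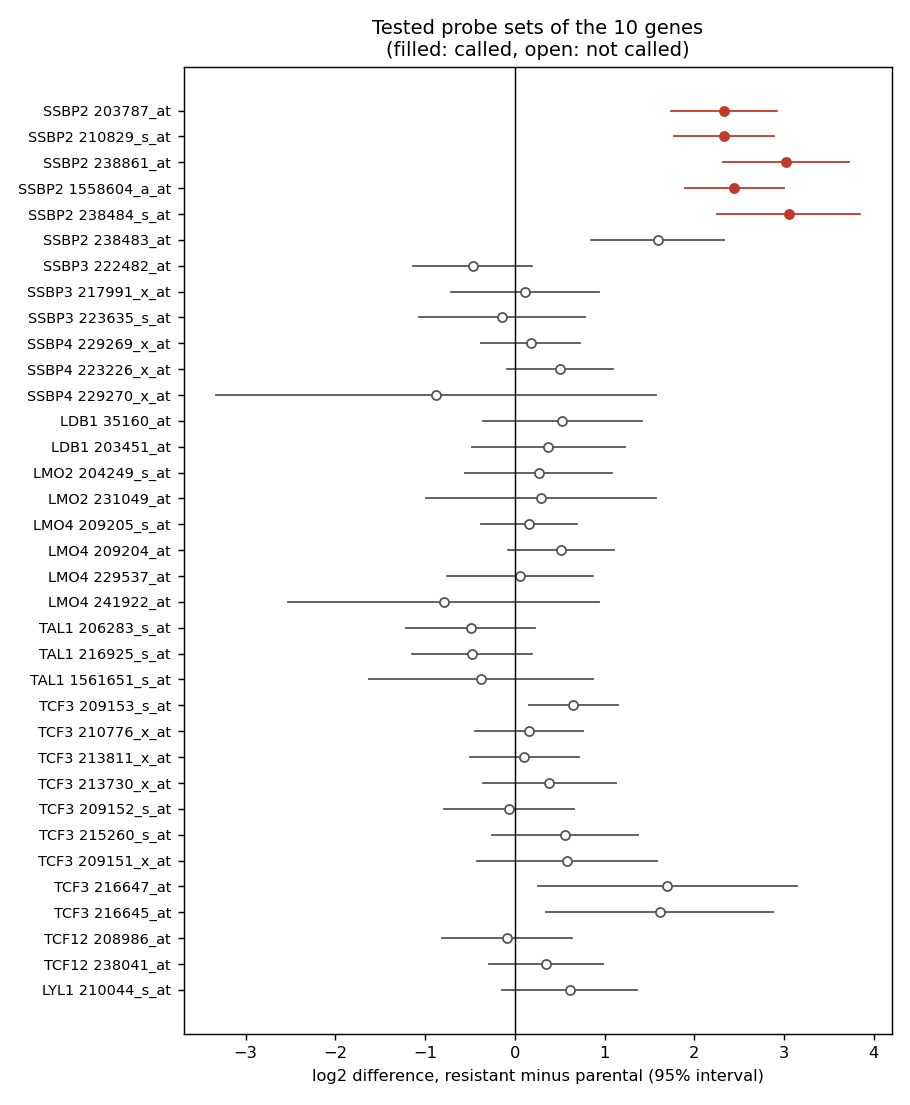
Log2 difference, resistant minus parental, with its 95% interval from limma for the 35 tested probe sets of the 10 genes (filled points were called). The 5 called probe sets are those of SSBP2, and the intervals of the 29 probe sets of the other genes include 0 in all but 3 cases, which are probe sets of TCF3.

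Over the 29 tested probe sets of the 9 genes other than SSBP2, log2 differences ran from -0.88 to 1.70 with a median of 0.18. A positive sign was seen in 20, or 69.0%, against 52.0% of all tested probe sets, whose median was 0.03. Leaving out the 3 that passed the level filter through 1 group only, it was seen in 18 of 26, or 69.2%, with a median of 0.17, against 53.1% of the 24023 probe sets that passed in both groups. Probe sets of the same gene are not separate observations, and TCF3 gave 8 of the 20. Those of LMO2 turned negative without parental 1 (-0.08 and -0.32). The smallest difference called anywhere was 1.04 in size, and all but the near-background TCF3 probe sets 216647_at and 216645_at differed by less than that. The absence of calls therefore does not show that these genes stayed level.

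Parental 1 was lower than the mean of parental 2 and 3 in 7 of these 9 genes by the highest probe set, a share of 77.8%, against 43.6% of 11810 genes. The gap was -1.03 on the log2 scale for LMO2, -0.87 for LDB1, -0.82 for TAL1 and -0.73 for TCF12, but only -0.00048 for TCF3. By their highest probe sets SSBP2, SSBP3 and LMO4 did not share it, parental 1 being the highest of the 3 parental arrays at 23.3, 33.6 and 12.1. Other probe sets of the same gene did not always follow. The gap was -0.46 for SSBP3 217991_x_at, -0.34 for SSBP3 223635_s_at and -0.48 for SSBP2 238484_s_at, but 0.67 for TCF12 238041_at. Without parental 1, 5 of the 35 member probe sets were called higher and 0 lower, where 2.38% of all probe sets were called higher and 1.68% lower. The 5 were all of SSBP2 and included 238484_s_at, which passed the level filter only through the resistant cells. What sets this array apart was not tested.

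Apart from those of fibroblasts, the summed markers of other cell types moved with the groups or with parental 1. The summed level of the 3 megakaryocyte markers named by a probe set in the annotation used ran from 1.71 to 2.50 in resistant arrays and from 4.41 to 24.2 in parental arrays, through ITGA2B. GP9 was at most 0.718 on any array. PF4 went the other way near background, with 0.919, 0.344 and 1.24 in resistant cells and 0.217, 0.305 and 0.260 in parental cells. That of the 4 granulocyte and monocyte markers ran from 10.6 to 21.9 in resistant arrays and from 42.6 to 62.7 in parental arrays, through LYZ, while MPO, ELANE and CD14 were at most 1.05 on any array. That of the 3 lymphoid markers ran from 2.73 to 3.35 in resistant arrays and from 34.5 to 51.2 in parental arrays, through CD3D, with CD3E and CD79A near background in both groups. These sums did not overlap between the groups. The 4 epithelial markers (KRT8, KRT18, EPCAM and CDH1) summed to between 203.5 and 267.5 in resistant arrays and between 234.0 and 549.9 in parental arrays, with parental 1 the highest. CDH1, the defining cadherin of epithelia, was at 0.0894, 0.152 and 0.373 in resistant cells and at 21.8, 2.01 and 0.717 in parental cells. The 4 fibroblast markers summed to between 5.77 and 7.74 in resistant arrays and between 6.65 and 7.39 in parental arrays. The part of these cell type markers in the members' values was not tested.

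**Figure D4:**
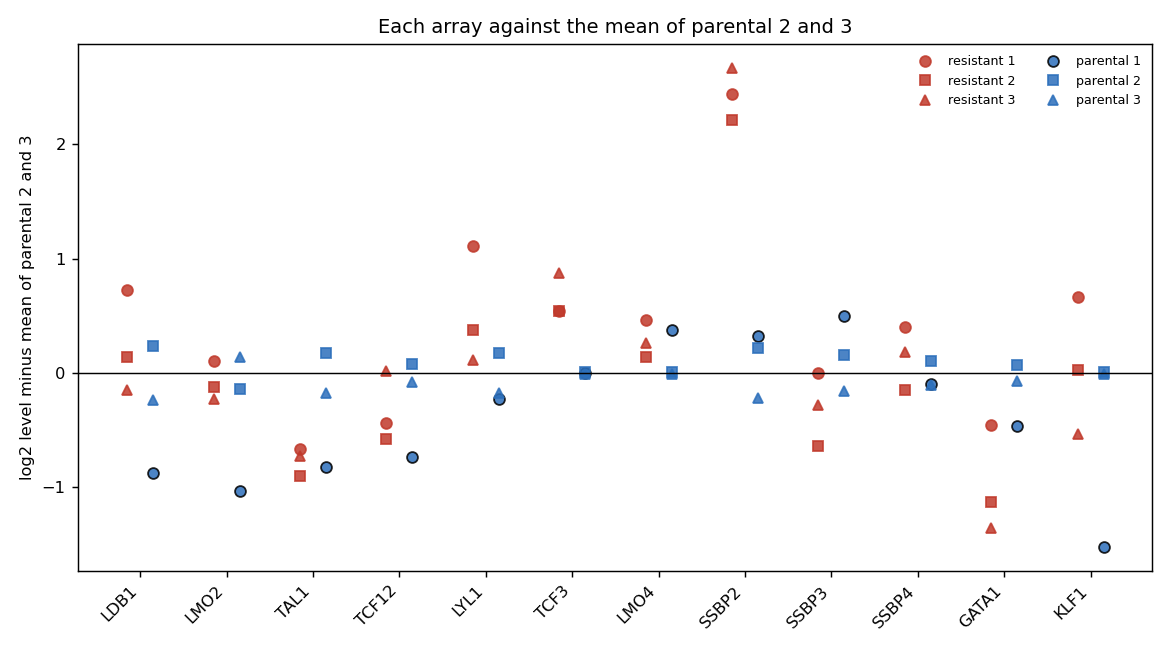
Log2 level of each array minus the mean of parental 2 and 3 for the 10 genes and for GATA1 and KLF1, each at its brightest tested probe set (points are arrays, and parental 1 is outlined in black). Parental 1 lies below 0 for LDB1, LMO2, TAL1, TCF12, GATA1 and KLF1 and above it for SSBP2, SSBP3 and LMO4. The 3 resistant arrays of SSBP2 lie more than 2 above 0.

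Among proteins that join or regulate the complex, 20 of the 22 listed were named by a probe set in the annotation used and 13 were tested. Of these 13 genes, 0 were called by limma, 2 had an unadjusted p under 0.05 (1 by the methods' test), and the median log2 difference was -0.03, against 0.02 over 11810 genes, of which 2.77% were called. GATA1, the erythroid GATA factor, had 42.0, 26.5 and 22.5 in resistant cells, against 41.8, 60.7 and 54.9 in parental cells. Resistant 1 just exceeded parental 1, so that the groups touched, and the log2 difference was -0.82 (limma adjusted p = 0.221). Without parental 1 it was -0.98, with no overlap (limma adjusted p = 0.16). The corepressors RCOR1, CBFA2T3 and HDAC1 had log2 differences of -0.71, -0.56 and -0.39, each with no overlap between the groups and with limma adjusted p of 0.168, 0.307 and 0.395. Of all tested probe sets, 12.3% had every resistant array below the parental ones. The closest relatives LDB2, LMO1 and LMO3 were below the filter.

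The other E protein, TCF4, and the ID proteins, which bind E proteins and keep them off DNA, differed in sign. Of 5 such genes with a probe set in that annotation 4 were tested, 0 were called by the highest probe set, 2 had an unadjusted p under 0.05 (2 by the methods' test), and the median log2 difference was 0.35, or -0.54 without parental 1, where ID4 was tested as well. TCF4 had 79.1, 68.9 and 85.5 in resistant cells, against 37.0, 49.8 and 38.2 in parental cells, a log2 difference of 0.91 (limma adjusted p = 0.104). All 8 probe sets of TCF4 had resistant arrays above the parental ones, with log2 differences from 0.80 to 1.67, an order seen in 14.9% of all tested probe sets. One of them, 228837_at, was called, with 5.11, 4.26 and 4.97 in resistant cells and 1.08, 1.72 and 1.80 in parental cells (limma adjusted p = 0.0343). This was singled out after its values were seen.

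ID1 had 24.0, 23.7 and 14.2 in resistant cells, against 57.6, 49.9 and 34.6 in parental cells, with no overlap and a log2 difference of -1.21 (limma adjusted p = 0.118). ID2 and ID3 depended on parental 1. ID2 had 40.2, 29.8 and 15.8 in resistant cells and 2.69, 36.2 and 27.0 in parental cells, with a log2 difference of 0.95, or -0.23 without parental 1. ID3 had 5.44, 4.54 and 5.40 in resistant cells and 1.57, 12.9 and 10.1 in parental cells, with a log2 difference of -0.20, or -1.16 without parental 1 (limma adjusted p = 0.0589).

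Of 14 listed genes that the complex is known to bind in erythroid cells, 10 had a probe set in that annotation and were tested. Of these, 1 was called lower and 0 higher, with 2 under 0.05 unadjusted. The median log2 difference was 0.13, against 0.02 over all genes. The 10 include KIT, with 9.22, 0.115 and 0.0945 in parental 1 to 3. They also include EPB42, which passed the level filter only through the parental cells (means 0.443 in resistant and 1.79 in parental cells). By gene, 1.47% of all genes were called lower and 1.30% higher. HBE1, the embryonic epsilon globin, had 73.8, 73.5 and 37.6 in resistant cells, against 670.3, 561.7 and 569.5 in parental cells, a log2 difference of -3.35 (limma adjusted p = 0.00562). MYB, a transcription factor of blood progenitors, had 117.3, 96.0 and 123.2 in resistant cells, against 53.2, 50.7 and 51.9 in parental cells. The groups were far apart, and its log2 difference of 1.10 came close to the threshold (limma adjusted p = 0.0527). It was called with quantile normalization in place of scaling (limma adjusted p = 0.0463). The genes EPOR, the erythropoietin receptor, NFE2, a factor of globin expression, and ZFPM1, the cofactor of GATA1, had log2 differences of -0.57, 0.68 and -0.52 with overlapping groups. Without parental 1, NFE2 was at 1.00 and ZFPM1 at -0.77, and their groups no longer overlapped (limma adjusted p = 0.149 and 0.202). Such a separation is easier to reach with an array left out.

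**Figure D5:**
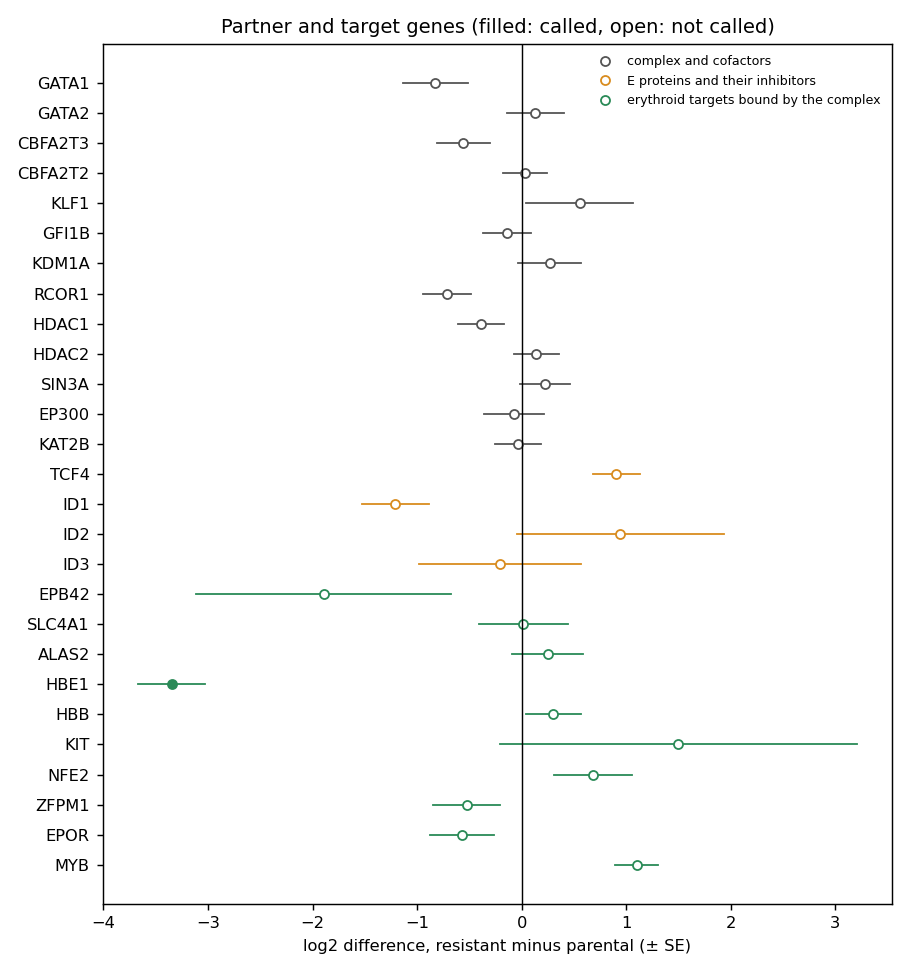
Log2 difference, resistant minus parental, with its SE for the 27 tested partner and target genes by the highest probe set (n = 3 arrays each; filled points were called). HBE1 at -3.35 is the one called gene, and MYB at 1.10 is next to the threshold.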

How the data were processed

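RNA from 3 resistant and 3 parental K562 samples was measured on Affymetrix HG U133 PLUS 2.0 arrays. The deposited values are linear signal intensities, 1 per probe set, from the authors' MAS5 run, whose version is not given in the sources used here. Group and replicate were taken from the labels. Intensities were scaled to the array median, as in the study's methods, floored at 0.01 and turned to log2. Probe sets averaging under 1 array median and 62 manufacturer controls were left out, and 26692 of 54675 were tested by limma 3.58.1 (R 4.3.3; lmFit, eBayes, two-sided, Benjamini-Hochberg over all of them). The number of arrays, 3 per group, limits the precision. A gene is represented by its brightest tested probe set (highest mean log2). Paralogue ratios were compared by exact permutation of the 6 arrays. By platform annotation 41097 probe sets named 1 gene, 1801 several and 11777 none, and 41043 of those with 1 gene matched RefSeq (GRCh38.p14), used for names, gene order and promoters. All members and probe sets are named. So are, in each list, called genes and up to 4 others of smallest adjusted p, the 3 tested genes on each side of SSBP2, the 5 most correlated with it, and SSBP1. KIT and EPB42 are named for their levels. Members and lists were chosen with earlier results of these data known. The fit was tested on simulated data. Alternatives were other normalizations, filters, a pseudocount, a variance trend, the methods' test, a replicate block, probe set classes and leaving out arrays. Some listed genes were not analysed here.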

Additional observations from a re-analysis of the deposited data

How the results depend on the processing

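SSBP2 kept its direction under every alternative run, and 5 member probe sets, all of this 1 gene, were called whichever array was left out. Among the 5 called with all arrays, 238484_s_at passed the level filter only through the resistant cells and had to differ. Probe set 203787_at, with a log2 difference of 2.33, missed the threshold with no level filter (adjusted p = 0.0663), the methods' t-test (adjusted p = 0.0546) and the replicate block (adjusted p = 0.0568). The members' count of higher calls was then 1, 2 and 4, and 3 with the _x_at and _s_at classes left out. Higher and lower calls over all probe sets, 319 and 303 above, numbered 97 and 77 with no filter, 599 and 592 with a pseudocount of 1 array median, 563 and 570 with an intensity trend, 82 and 44 by the t-test, 133 and 136 with the replicate block, 204 and 190 without those classes, and 103 to 633 and 79 to 447 with an array left out. Those ends come from leaving out resistant 2 and parental 1 for higher calls, and parental 2 and parental 1 for lower calls. As deposited, with no scaling, 210 were higher and 321 lower, the median of all probe sets moved to -0.17, and 6 member probe sets turned negative: SSBP3 217991_x_at (-0.089), SSBP4 229269_x_at (-0.025), LMO4 209205_s_at (-0.040) and 229537_at (-0.14), and TCF3 210776_x_at (-0.037) and 213811_x_at (-0.095).

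With an array left out, log2 differences that changed sign ran from -0.18 to 0.40 for SSBP3 217991_x_at, -0.51 to 0.19 for SSBP3 223635_s_at, -1.59 to 0.15 for SSBP4 229270_x_at, -0.079 to 0.51 for LMO2 204249_s_at, -0.32 to 0.65 for LMO2 231049_at, -0.14 to 0.37 for LMO4 229537_at, -1.34 to 0.10 for LMO4 241922_at, -0.045 to 0.31 for TCF3 210776_x_at, -0.30 to 0.082 for TCF3 209152_s_at and -0.33 to 0.075 for TCF12 208986_at. The median of the E protein list ran from -0.54, without parental 1, when ID4 was also tested, to 0.70. One erythroid target, MYB, was called higher under quantile normalization, a filter at 2, a pseudocount, the trend, or the mean of probe sets, and HBE1 lost its call by the t-test, which left 0 lower. ID1 of the E protein list was called lower with the pseudocount or the trend. SSBP2 against SSBP4 shifted by 2.53 with the mean of probe sets. The cause of these changes was not tested. Shared replicate numbers do not pair the samples, whose deviations correlated at -0.01, -0.03 and -0.01. With 3 arrays per group, levels near the array median have wide intervals.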
